A study of Rattus norvegicus with 24 samples.

Results

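Aminoacyl-tRNA synthetases are the enzymes that join each amino acid to its transfer RNA (tRNA), and their mRNAs were followed in rat tibialis anterior muscle over 30 days of daily resistance training. Members were the rows of the transcript table whose gene symbol is that of a synthetase by name (a letter for the amino acid followed by ars, with or without a 1 or 2, plus Farsa, Farsb and Eprs), and transcripts of a gene were summed. The rule found 37 genes with 54 transcripts among 15273 gene symbols and 20027 transcripts. By their names 20 genes were cytosolic and 17, which end in 2, were mitochondrial, and all 37 passed the filter on low values.

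The muscles came from male Wistar rats of adult age, each with an implanted pulse generator that stimulated the left hind limb. In this SpillOver training the dorsiflexors, which include the tibialis anterior, contracted against the co-contracting plantar flexors in 1 session per day for 2, 10, 20 or 30 days. Both tibialis anterior muscles were taken an hour after the last session, so trained values hold the response to that session as well as to the days before it. The unstimulated right muscle of the same animal was the contralateral control, and it shared the anesthesia, the abdominal implant and any systemic effect with the trained side, but not the incision and the electrodes of the left hind limb. Polyadenylated RNA was sequenced from 12 animals, 3 per time point, giving 24 libraries: 12 contralateral controls, which formed 1 group, and 3 trained muscles at each time. Nothing here separates muscle fibers from the other cells of the tissue, and in whole muscle fewer cells of a type and less RNA per cell cannot be told apart.

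Each synthetase reads 1 amino acid, and the cytosolic and the mitochondrial ribosomes are supplied by separate sets that are both encoded in the nucleus. Eprs, Iars1, Lars1, Mars1, Qars1, Rars1, Kars and Dars sit together in the cytosolic multisynthetase complex, and Eprs joins both glutamate and proline. Kars and Gars also supply the mitochondrion from the same gene, and mitochondrial glutamine tRNA is made from glutamate-charged tRNA by the amidotransferase of Gatb, Gatc and Qrsl1, which is why no Kars2, Gars2 or Qars2 is listed. Many cytosolic synthetase genes are known targets of Atf4, the transcription factor of the amino acid response.

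Promoters are shown for tyrosine, threonine and alanine, the mitochondrial gene beside the cytosolic gene for the same amino acid. On the log2(value + 1) scale Yars2, Tars2 and Aars2 had the largest falls of the 37 at any time. As a difference of means, Cars2 at 2 days (-37.26%) fell more than Tars2 at 10 days (-36.13%). RefSeq promoter windows, 250 bases before to 50 after the start in the GRCr8 assembly, were matched for 33 of the 37 genes (Dars, Gars and Rars1 were among those with no match). The windows of 3 cytosolic and 3 mitochondrial genes are printed 5′ to 3′, with capitals for any match on either strand to TGATGNAA (the amino acid response type that Atf4 complexes bind), CACGTG (the E-box) or TGCGCNTGC (a core bound by NRF1, a factor known for mitochondrial genes).
Yars1, cytosolic tyrosyl, GRCr8 chr5:146819913-146820212, plus strand: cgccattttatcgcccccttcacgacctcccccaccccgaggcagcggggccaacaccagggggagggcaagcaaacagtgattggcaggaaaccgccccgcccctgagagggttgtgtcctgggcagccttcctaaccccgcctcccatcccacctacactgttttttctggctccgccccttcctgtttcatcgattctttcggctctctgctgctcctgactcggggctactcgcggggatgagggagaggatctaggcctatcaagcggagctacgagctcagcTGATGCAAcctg
Yars2, mitochondrial tyrosyl, GRCr8 chr11:98142243-98142542, minus strand: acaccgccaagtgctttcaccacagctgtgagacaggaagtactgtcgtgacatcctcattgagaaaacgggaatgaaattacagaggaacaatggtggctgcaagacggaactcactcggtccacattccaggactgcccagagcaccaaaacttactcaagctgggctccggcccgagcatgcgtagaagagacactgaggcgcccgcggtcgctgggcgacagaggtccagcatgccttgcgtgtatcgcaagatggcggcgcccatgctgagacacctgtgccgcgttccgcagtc
Tars1, cytosolic threonyl, GRCr8 chr2:62114753-62115052, minus strand: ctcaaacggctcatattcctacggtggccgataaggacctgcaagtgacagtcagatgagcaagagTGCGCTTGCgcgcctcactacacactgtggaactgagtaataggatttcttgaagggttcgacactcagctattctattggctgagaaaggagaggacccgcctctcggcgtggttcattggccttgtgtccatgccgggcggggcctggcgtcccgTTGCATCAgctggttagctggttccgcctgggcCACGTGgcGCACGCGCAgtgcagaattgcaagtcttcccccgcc
Tars2, mitochondrial threonyl, GRCr8 chr2:185999064-185999363, minus strand: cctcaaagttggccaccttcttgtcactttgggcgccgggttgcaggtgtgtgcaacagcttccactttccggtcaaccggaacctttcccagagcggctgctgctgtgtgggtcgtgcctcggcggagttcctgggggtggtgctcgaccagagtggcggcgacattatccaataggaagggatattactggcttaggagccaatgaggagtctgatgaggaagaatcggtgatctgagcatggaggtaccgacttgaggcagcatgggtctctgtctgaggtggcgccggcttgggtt
Aars, cytosolic alanyl, GRCr8 chr19:55908232-55908531, plus strand: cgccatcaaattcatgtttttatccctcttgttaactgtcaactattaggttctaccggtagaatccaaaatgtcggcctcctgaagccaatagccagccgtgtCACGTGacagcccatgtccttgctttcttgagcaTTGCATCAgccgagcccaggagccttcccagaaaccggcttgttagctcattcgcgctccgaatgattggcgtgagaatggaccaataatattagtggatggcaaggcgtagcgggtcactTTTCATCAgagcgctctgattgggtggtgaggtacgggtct
Aars2, mitochondrial alanyl, GRCr8 chr9:22993487-22993786, minus strand: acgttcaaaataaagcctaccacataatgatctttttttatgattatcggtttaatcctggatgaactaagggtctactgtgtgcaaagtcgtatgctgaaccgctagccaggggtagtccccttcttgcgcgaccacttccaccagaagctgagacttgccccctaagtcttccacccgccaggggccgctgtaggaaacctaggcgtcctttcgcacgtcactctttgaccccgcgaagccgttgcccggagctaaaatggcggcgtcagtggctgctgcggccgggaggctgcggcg

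TGATGNAA occurred in 7 of the 17 cytosolic windows matched (Aars, Cars, Iars1, Mars1, Nars1, Tars1 and Yars1) and in 0 of the 16 mitochondrial windows, against 3.98% of the 33469 promoter windows of the table. CACGTG was found in 5 cytosolic windows and in 1 mitochondrial window, that of Ears2, against 6.42% of all windows. TGCGCNTGC was found in 4 cytosolic and 3 mitochondrial windows, against 4.2% of all. None of the motifs was in the windows of Tars2, Yars2 or Aars2, and the matches are a description of these letters in these windows only. In Rnor_6.0, the build of the deposited table, the gene bodies lie at chr2:197861115-197878143 (Tars2), chr11:88882616-88888378 (Yars2), chr9:17869124-17880707 (Aars2), chr5:147375350-147403572 (Yars1) and chr19:43193257-43215282 (Aars).

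The values are TPM-type, which scales for transcript length, and each library was set to a common level with its median-of-ratios factor (0.778 to 1.14). On that scale a value of 1 on a transcript of 1 kb stood for an estimated 5.79 to 10.1 reads, with contralateral muscle 2 of 30 days the shallowest. Of the fast muscle markers 8 of 9 were in the table, and their summed level of 85910 to 99120 in the controls showed the labelled tissue. Contralateral muscle 1 of 30 days stood apart from the other controls, with the lowest scaling factor and a ratio of cytosolic to mitochondrial synthetases of 6.37 against 4.65 to 5.71 in the other 11. Between the control groups of the 4 time points, 0 of the 37 genes differed (limma F test, against 0.152% of the 11196 genes tested), and the lowest unadjusted p was 0.0453 for Ears2 (adjusted p = 0.546).

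In the controls the cytosolic genes were the more abundant in sum, and their values per transcript length summed to 468 ± 21.2 (SD, n = 12) against 90.5 ± 5.27 for the mitochondrial genes. Kars, the lysyl enzyme of both compartments, had the highest level at 66.7 ± 8.94, with contralateral muscle 1 of 30 days at 93.5, and was followed by Sars1 (seryl) at 45.0 ± 3.23. Dars, Aars, Qars1 and Eprs came next between 30.7 and 33.04, where each differs from its neighbour in the order by less than their SDs of 1.97 to 2.51. Cars (cysteinyl) was the lowest cytosolic gene at 6.07 ± 0.72.
Among the mitochondrial genes Tars2 and Iars2 led at 14.7 ± 1.45 and 14.6 ± 1.42, which do not differ beyond their spread. Both means lay above those of the cytosolic genes for the same amino acid, Tars1 at 13.85 ± 1.27 and Iars1 at 11.95 ± 1.11. For threonine that difference was less than the SDs. Hars2 and Fars2 followed at 8.58 ± 0.965 and 8.32 ± 1.33. Pars2, Ears2 and Mars2 lay lowest at 1.35 ± 0.244, 0.97 ± 0.257 and 0.898 ± 0.151, where the pseudocount of 1 holds log2 changes down.

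After 2 days of training the cytosolic synthetases past the threshold were all higher and the mitochondrial ones all lower than in the controls. Of the 20 cytosolic genes 4 rose and 0 fell (20.0% higher, against 15.4% of all genes tested), and of the 17 mitochondrial genes 0 rose and 6 fell (35.3% lower, against 13.5% of all genes tested). Called or not, 11 cytosolic genes lay above 0 and 9 below, and 4 mitochondrial genes lay above 0 and 13 below. The median log2 fold change was 0.15 for the cytosolic and -0.23 for the mitochondrial genes, beside -0.01 over all genes, and the difference between the sets was not tested. The genes that rose were Hars1, Yars1, Eprs and Wars1, and those that fell were Aars2, Cars2, Yars2, Tars2, Sars2 and Iars2.

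**Figure D1:**
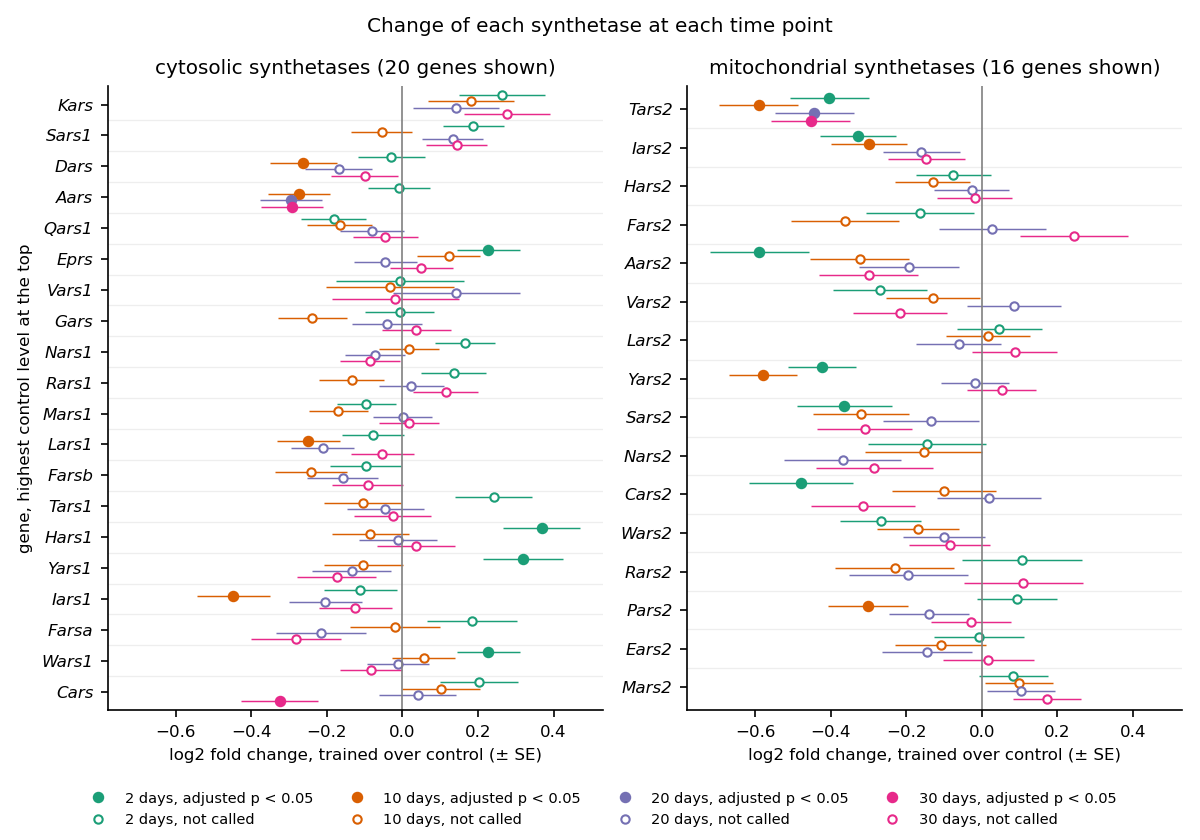
Log2 fold change of each trained group over the 12 controls for 36 of the 37 synthetase genes, by compartment, with the SE of the limma fit as bars and filled points past an adjusted p of 0.05. At 2 days the filled points lie right of 0 for 4 cytosolic genes and left of 0 for 6 mitochondrial genes, and Tars2 is filled left of 0 at all 4 times.

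Hars1, which charges histidine tRNA, had the largest rise. Its 3 trained muscles had values of 16.8, 20.3 and 15.4, and the controls ran from 11.2 over a median of 12.9 to 15.8. The lowest trained muscle lay within the control range, and all 3 lay above the contralateral muscle of the same animal. The log2 fold change was 0.37 ± 0.10 (SE, limma, adjusted p = 0.00861).
Its neighbour Hars2, the mitochondrial histidyl gene, starts 96 bases away on the opposite strand of chromosome 18 in Rnor_6.0. Hars2 had 8.8, 7.45 and 7.95 in the trained muscles and 6.74 to 9.95 in the controls, and its log2 fold change was -0.08 (adjusted p = 0.601).

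Yars1, the cytosolic tyrosyl enzyme, had values of 13.97, 18.98 and 15.29 after 2 days, against 11.56 to 15.45 with a median of 12.2 in the controls. Trained muscle 2 lay above every control and the other two within the control range, and the log2 fold change was 0.32 ± 0.10 (adjusted p = 0.0245). Eprs had 35.1, 37.2 and 35.8 against 26.4 to 34.4, all above the controls, with a log2 fold change of 0.23 ± 0.08 (adjusted p = 0.0438). Wars1, the tryptophanyl enzyme known as an interferon-gamma target, had 9.84, 10.5 and 9.74 against 7.22 to 9.29, also without overlap, with a log2 fold change of 0.23 ± 0.08 (adjusted p = 0.0415).
Of 9 other interferon-gamma targets measured, 0 passed at 2 days, when 15.4% of all genes were higher. All 9 were above 0 at that time, with a median log2 fold change of 0.28. At 10 days 6 rose, when 15.6% of all genes were higher. Among them were Psmb9 by 0.82, Psmb8 by 0.69 and Gbp2 by 0.60 (limma, adjusted p = 0.000302, 0.0164 and 0.00389) and Tap1 by 0.51 (0.00853). The log2 fold change of Wars1 at 10 days was 0.06 (adjusted p = 0.657). The list was not tested against those shares, and a link of Wars1 to it was not tested.

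At an unadjusted p under 0.05, 8 cytosolic genes were higher and 1 lower, and 0 mitochondrial genes were higher and 9 lower, in all 48.6% of the 37 against 39.9% of all genes. The 4 rises did not pass with the animal as a block, where 0 cytosolic genes were called (adjusted p = 0.143 for Hars1, 0.064 for Yars1, 0.181 for Eprs and 0.337 for Wars1), or without trained muscle 2, where again 0 were called (adjusted p = 0.151, 0.293, 0.196 and 0.214 in the same order, with the log2 fold change of Yars1 going from 0.32 to 0.20). Without trained muscle 3 only Hars1 of the 4 remained, with Yars1 at an adjusted p of 0.0566, Eprs at 0.115 and Wars1 at 0.0875, and Eprs and Wars1 also failed without trained muscle 1 (0.065 and 0.068) and without any of 8 and of 6 controls. With the block the log2 fold changes were 0.26 for Hars1, 0.32 for Yars1, 0.23 for Eprs and 0.16 for Wars1. Over all 11196 genes tested 1728 were called higher at 2 days, 1320 with the block and 927 without trained muscle 2. The other 16 cytosolic genes had log2 fold changes from -0.18 for Qars1 to 0.26 for Kars, none past the threshold.

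Aars2, the mitochondrial alanyl enzyme, had the largest fall at 2 days. Its trained muscles had 5.14, 2.82 and 3.82, and the controls ran from 4.68 over a median of 6.56 to 7.43. Trained muscle 1 lay within the control range and the other two below it, and all 3 lay below their own contralateral muscle. The log2 fold change was -0.59 ± 0.13 (adjusted p = 0.00146, and 0.0549 without trained muscle 2).
Yars2, the mitochondrial tyrosyl enzyme, had 3.44, 2.64 and 3.05 after 2 days against 3.95 to 5.35 with a median of 4.26 in the controls. There was no overlap, and the log2 fold change of -0.42 ± 0.09 (adjusted p = 0.00105) passed with any library left out and with the animal as a block (adjusted p = 0.00529).

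Cars2, the mitochondrial cysteinyl enzyme, had 2.28, 2.06 and 2.23 against 2.32 to 4.55 with a median of 3.57. All 3 trained muscles lay just below the lowest control, and the log2 fold change was -0.48 ± 0.14 (adjusted p = 0.0108). Tars2, the mitochondrial threonyl enzyme, had 10.9, 9.49 and 12.2 against 12.01 to 16.8 with a median of 14.6. Trained muscle 3 overlapped with the lowest control, and the log2 fold change was -0.40 ± 0.10 (adjusted p = 0.00486).
Sars2, the mitochondrial seryl enzyme, had 3.24, 3.39 and 2.27 against 3.07 to 5.06 with a median of 4.28, and 2 of the 3 overlapped with the controls. Its log2 fold change was -0.36 ± 0.13 (adjusted p = 0.033). Iars2, the mitochondrial isoleucyl enzyme, had 12.6, 10.4 and 11.2 against 12.5 to 16.6 with a median of 14.7, of which 1 overlapped. Its log2 fold change was -0.33 ± 0.10 (adjusted p = 0.017).

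With the animal as a block 6 mitochondrial genes were again called, with Iars2 lost (adjusted p = 0.109) and Vars2 gained (adjusted p = 0.0265). Over all 11196 genes tested 1507 were called lower at 2 days, 1097 with the block and 586 without trained muscle 2. Without trained muscle 2 only Yars2 remained (Cars2 0.0767, Tars2 0.0859, Sars2 0.0503 and Iars2 0.151 as adjusted p), and Sars2 and Iars2 also failed without trained muscle 3 (0.278 and 0.0736), where the log2 fold change of Sars2 went from -0.36 to -0.23.
The division between rises and falls moved with the scaling. Without the factor, when the median over all genes became 0.07 at 2 days, 9 cytosolic genes rose (Cars, Kars, Rars1, Sars1 and Tars1 in addition) and 2 mitochondrial genes fell (Aars2 and Yars2), against 18.9% of all genes higher and 6.49% lower.

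A ratio within a library does not depend on the scaling. The sum of the cytosolic over the sum of the mitochondrial genes was 6.0, 8.09 and 6.73 in the trained muscles of 2 days, and it ran from 4.65 over a median of 5.06 to 6.37 in the controls. It exceeded that of the own contralateral muscle in 3 of 3 animals at 2 days and in 3 of 3 at 10 days, when it was 6.62, 6.34 and 5.67. At 20 days it ran from 5.28 to 6.08 and at 30 days from 5.54 to 5.93, in both cases above the own contralateral muscle in 2 of 3 animals. The cytosolic sum after 2 days was 480 to 538 against 441 to 526 in the controls, and the mitochondrial sum was 66.5 to 80.0 against 82.5 to 100.1. On these scaled values the mitochondrial sum did not overlap and the cytosolic sum did. Unlike the ratio, the sums depend on the scaling, so which of them overlaps holds for the scaled values only. The most abundant genes weigh most in the sums and the ratio, and Kars and Gars, which supply both compartments, were counted as cytosolic. The mean of Kars was 66.74 in the controls and 80.34 at 2 days, and that of Gars was 24.64 and 24.45.

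**Figure D2:**
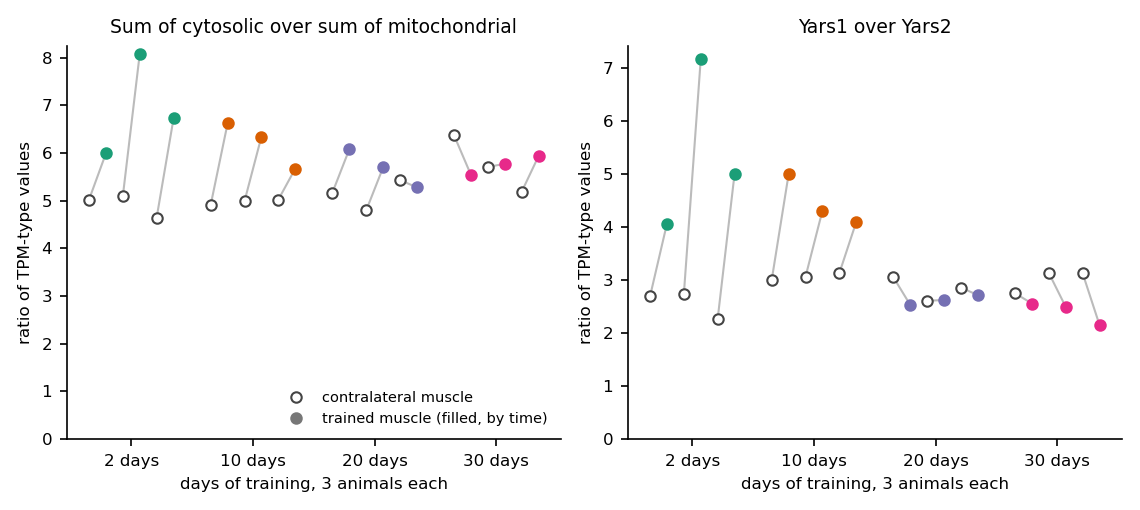
Ratio of the summed cytosolic to the summed mitochondrial values (left) and of Yars1 to Yars2 (right) in each animal, contralateral muscle as an open and trained muscle as a filled point joined by a line, with the y axes from 0. The trained muscle lies above its contralateral muscle in all 6 animals of 2 and 10 days in both panels, and for Yars1 over Yars2 it lies below it in 5 of the 6 animals of 20 and 30 days. Yars1 and Yars2 are the pair with the widest gap at 2 days in these same data.

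For 14 amino acids a cytosolic and a mitochondrial gene could be paired by name. Phenylalanine (Farsa and Farsb with Fars2) and Eprs with Ears2 and Pars2 were left out of the pairs. The change of the cytosolic gene was the higher in 12 of the 14 pairs at 2 days, with a median difference of 0.38 on the log2 scale. The exceptions were leucine (-0.08 for Lars1 and 0.05 for Lars2) and methionine (-0.10 for Mars1 and 0.08 for Mars2). Tyrosine had the widest gap, 0.32 for Yars1 against -0.42 for Yars2, and was followed by cysteine, 0.20 for Cars against -0.48 for Cars2, and by threonine, 0.24 for Tars1 against -0.40 for Tars2. The cytosolic gene was the higher in 11 pairs at 10 days, 9 at 20 days and 10 at 30 days, with median differences of 0.10, 0.02 and 0.01. The differences within pairs were not tested.

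**Figure D3:**
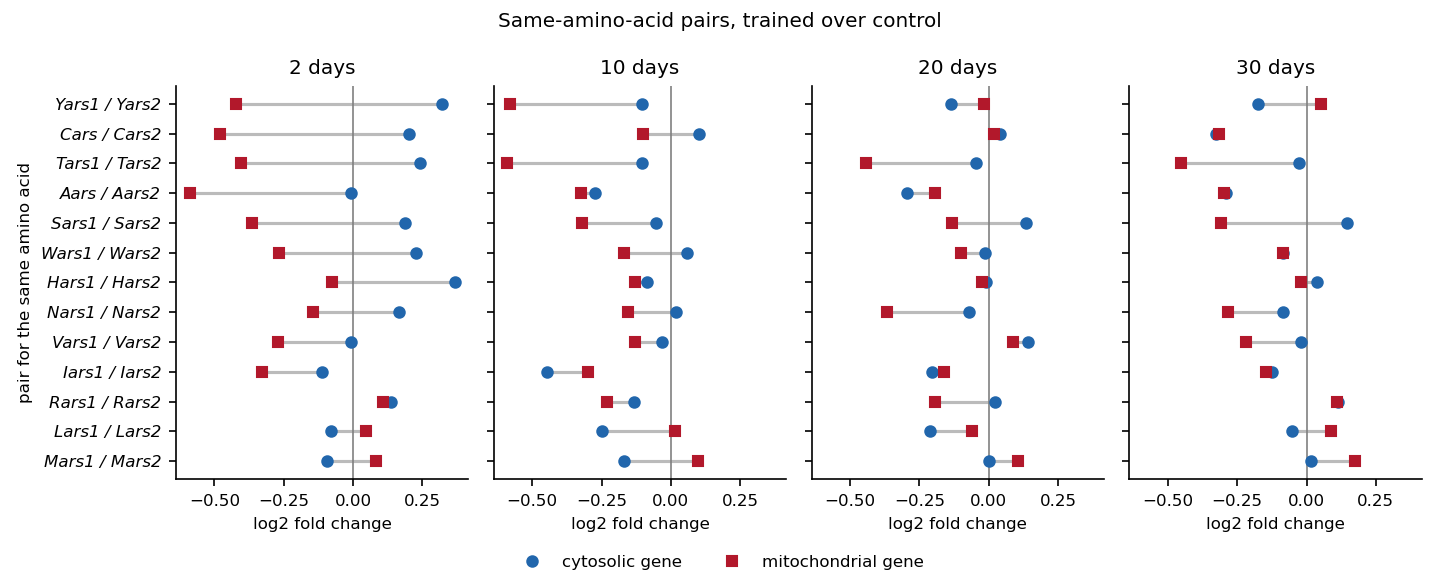
Log2 fold change over the controls of the cytosolic gene (circle) and the mitochondrial gene (square) for the same amino acid in 13 of the 14 pairs at each time point, joined by a line and ordered by the difference at 2 days. The gap is widest for Yars1 and Yars2 at 2 days, 0.32 against -0.42, and the median gap over the 14 pairs narrows from 0.38 at 2 days to 0.01 at 30 days.

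At 10 days genes of both compartments fell and none of the 37 rose. Of the cytosolic genes 0 rose (15.6% of all genes did) and 4 fell (20.0% of the 20, against 13.3% of all genes), namely Iars1, Aars, Dars and Lars1. Of the mitochondrial genes 0 rose and 4 fell (23.5% of the 17), namely Tars2, Yars2, Iars2 and Pars2. The medians were -0.10 and -0.23, beside -0.03 over all genes, and 15 of 20 cytosolic and 15 of 17 mitochondrial genes lay below 0. At an unadjusted p under 0.05 the cytosolic genes counted 0 higher and 7 lower and the mitochondrial genes 0 higher and 8 lower, in all 40.5% of the 37 against 39.0% of all genes.

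Tars2 had its lowest level at 10 days. Its trained muscles had 8.92, 9.46 and 9.75, all below the lowest control at 12.01, and the log2 fold change was -0.59 ± 0.10 (adjusted p = 0.000118). Yars2 was lowest at this time as well, with 2.34, 2.63 and 2.91 against a lowest control of 3.95 and a log2 fold change of -0.58 ± 0.09 (adjusted p = 3.2e-05). Both passed with the animal as a block (adjusted p = 0.00194 for Tars2 and 0.00938 for Yars2), with any library left out and on the values as deposited.
Iars2 had 10.6, 11.04 and 13.4 with 1 of 3 in the control range, and a log2 fold change of -0.30 ± 0.10 (adjusted p = 0.0285). Pars2, the mitochondrial prolyl enzyme, had 0.673, 0.785 and 1.28 against 0.871 to 1.86, and a log2 fold change of -0.30 ± 0.11 (adjusted p = 0.0351). Iars2 and Pars2 failed with the block (adjusted p = 0.0586 and 0.137), without trained muscle 1 (0.185 and 0.26) and without trained muscle 2 (0.125 and 0.158).

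Iars1, the cytosolic isoleucyl enzyme, had 8.14, 7.68 and 9.69 at 10 days against 9.4 to 13.5 with a median of 11.96 in the controls. Trained muscle 3 overlapped with the lowest control, and the log2 fold change was -0.45 ± 0.10 (adjusted p = 0.00106, and 0.00708 with the block). Lars1, the leucyl enzyme that also senses leucine, had 16.8, 16.6 and 17.1 against 18.3 to 24.1, with no overlap and a log2 fold change of -0.25 ± 0.08 (adjusted p = 0.0259). Dars, the aspartyl enzyme, had 28.5, 30.1 and 23.8 against 29.7 to 35.6, with a log2 fold change of -0.26 ± 0.09 (adjusted p = 0.0284).
Of the 4 genes that fell, Iars1, Lars1 and Dars belong to the multisynthetase complex, of whose 8 members 3 fell at 10 days and 0 at 20 and 30 days, and of whose members only Eprs had risen at 2 days, where 13.3% of all genes were lower at 10 days and 15.4% higher at 2 days. By catalytic fold, 4 of 18 class I and 4 of 18 class II genes fell at 10 days, after 2 rises and 3 falls in class I and 1 rise and 3 falls in class II at 2 days (Eprs holds both folds and was left out). Counts this small are not set apart from those shares of all genes, and no test was run on them. With the block only Iars1 was called among the cytosolic genes (adjusted p = 0.118 for Aars, 0.0706 for Dars and 0.162 for Lars1). Lars1 failed without any of the 3 trained muscles (adjusted p = 0.063 to 0.0913), Dars without trained muscle 1 (0.0597) or 3 (0.252, with the log2 fold change going from -0.26 to -0.17), and Aars without trained muscle 1 (0.0818). On the values as deposited none of these 4 passed, and Kars was called higher.

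Aars, the cytosolic alanyl enzyme, was at the control level at 2 days and lower at the 3 later times. The controls ran from 29.9 over a median of 32.4 to 36.1, and the trained muscles had 35.2, 31.3 and 31.6 at 2 days and 26.1, 27.2 and 27.7 at 10 days. At 20 days they had 27.9, 27.3 and 24.7, and at 30 days 30.5, 23.3 and 26.6. All muscles of 10 and 20 days lay below the controls, and at 30 days trained muscle 1 overlapped with them. The log2 fold changes were -0.01, -0.27, -0.30 and -0.29, each ± 0.08 (adjusted p = 0.95, 0.0136, 0.0108 and 0.0128), and with the block none passed (adjusted p = 0.118, 0.125 and 0.109 at 10, 20 and 30 days).
The call at 20 days was lost without trained muscle 3 (adjusted p = 0.0802), and that at 30 days without trained muscle 2 (0.168) or 3 (0.0545).

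**Figure D4:**
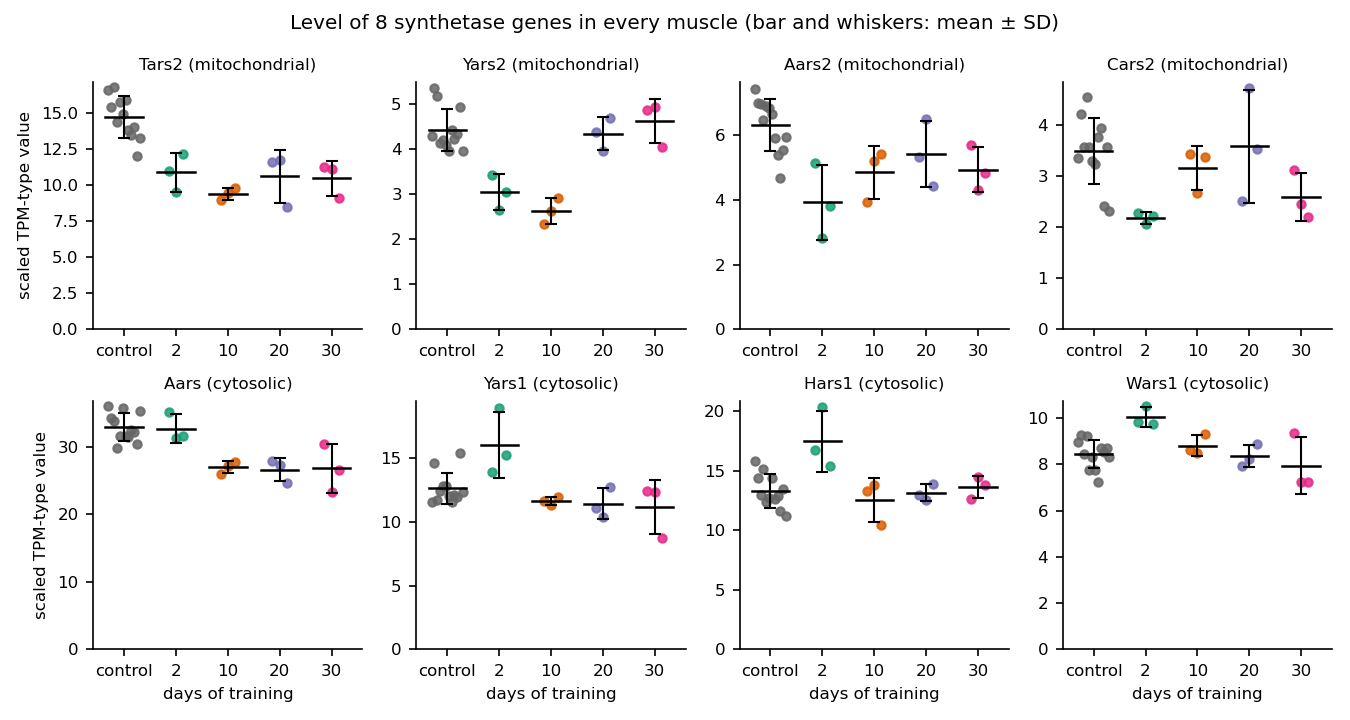
Scaled TPM-type value of 8 synthetase genes in every muscle, with 12 controls in grey and 3 trained muscles at each time in color, mean as a line and SD as whiskers, and the y axes from 0. Tars2 lies below the control mean at all 4 times, Yars2 is low at 2 and 10 days and in the control range at 20 and 30 days, and Aars is low from 10 days on.

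At 20 days 1 gene of each compartment fell and 0 rose, Aars (1 of 20 cytosolic genes) and Tars2 (5.88% of the 17 mitochondrial genes), against 9.64% of all genes lower and 11.7% higher. Tars2 had 11.6, 11.7 and 8.49, all below the lowest control, with a log2 fold change of -0.44 ± 0.10 (adjusted p = 0.00298, 0.0236 with the block and 0.0626 without trained muscle 3). Yars2 had 4.38, 3.96 and 4.7, within the control range, and a log2 fold change of -0.02 ± 0.09 (adjusted p = 0.916). At an unadjusted p under 0.05, 0 members were higher and 5 lower, 13.5% of the 37 against 33.0% of all genes. The remaining genes ran from -0.22 for Farsa to 0.14 for Vars1 and Kars in the cytosolic and from -0.37 for Nars2 to 0.10 for Mars2 in the mitochondrial set.

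At 30 days 2 cytosolic genes fell, Aars and Cars (10.0%), and 1 mitochondrial gene, Tars2 (5.88%), against 9.46% of all genes lower, and 0 rose, against 11.1% of all genes (at an unadjusted p under 0.05, 1 higher and 7 lower, 21.6% of the 37 against 33.7% of all genes). Tars2 had 11.2, 11.1 and 9.08, below every control, with a log2 fold change of -0.45 ± 0.10 (adjusted p = 0.00289). Cars, the cytosolic cysteinyl enzyme, had 4.81, 4.18 and 4.88 against 4.48 to 7.27 with a median of 6.25, and 2 of the 3 overlapped, with a log2 fold change of -0.33 ± 0.10 (adjusted p = 0.0261). The call of Cars was lost without any of the 3 trained muscles (adjusted p = 0.0562, 0.163 and 0.0574).
With the block 0 of the 37 genes were called at 30 days (adjusted p = 0.111 for Tars2, with a log2 fold change of -0.30, and 0.0603 for Cars). Over all 11196 genes the block called 807 higher and 570 lower. Without the scaling factor, when the median over all genes became -0.18, 8 cytosolic and 5 mitochondrial genes fell, where 23.0% of all genes did. Without the contralateral muscles 1 and 2 of 30 days, a choice made after their values were seen, Kars rose and Farsa fell in addition.

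Across the 4 times Tars2 was the only synthetase called at each, and Yars2 was called at 2 and 10 days but not at 20 and 30 days. The trained groups were therefore compared with each other, which also shows where the changes differed with the length of training. Between 10 and 2 days 0 of the 37 genes differed (limma), against 1.93% of all genes, and 10 had an unadjusted p under 0.05 (27.0%, against 14.9% of all genes), with adjusted p = 0.0706 for Hars1, 0.103 for Yars1, 0.47 for Wars1 and 0.689 for Eprs. Between 20 and 2 days 2 differed (5.41%, against 8.05% of all genes), between 30 and 2 days 5 (13.5%, against 15.0%) and between 30 and 10 days 1 (2.70%, against 3.94%).
Yars2 accounted for a call in each of the last 3 comparisons. It was higher by 0.40 ± 0.11 on the log2 scale at 20 than at 2 days (adjusted p = 0.0302), by 0.48 ± 0.11 at 30 than at 2 days (adjusted p = 0.00665) and by 0.63 ± 0.11 at 30 than at 10 days (adjusted p = 0.00308). Its muscles of 30 days had 4.87, 4.94 and 4.05, all above those of 2 and 10 days. Without the scaling factor none of these 3 calls of Yars2 passed, with log2 fold changes of 0.32, 0.21 and 0.36 (adjusted p = 0.145, 0.246 and 0.0564), though that between 30 and 10 days did with a pseudocount of 0.1.

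Yars1 went the other way, lower at 20 days (log2 fold change -0.45 ± 0.13, adjusted p = 0.0348) and at 30 days (-0.49 ± 0.13, adjusted p = 0.0133) than at 2 days. Its values were 11.1, 10.4 and 12.8 at 20 days and 12.4, 12.3 and 8.74 at 30 days, all below the 3 muscles of 2 days. The ratio of Yars1 to Yars2 within a library was 2.27 to 3.14 in the controls, 4.07, 7.18 and 5.01 at 2 days, 5.0, 4.31 and 4.1 at 10 days, 2.53 to 2.72 at 20 days and 2.15 to 2.56 at 30 days. The groups of 2 and 10 days thus lay above every control, and that of 30 days held the lowest ratio. Tyrosine had the widest gap of the 14 pairs at 2 days in these same data, so the ratio at 2 days restates that gap and is no separate support.
Cars (-0.53 ± 0.13, adjusted p = 0.00769), Farsa, the catalytic subunit of the cytosolic phenylalanyl enzyme (-0.47 ± 0.15, adjusted p = 0.0374), and Wars1 (-0.31 ± 0.10, adjusted p = 0.046) were also lower at 30 than at 2 days. Without the scaling factor, when the median over all genes became -0.27, the differences of Cars, Farsa, Wars1 and Yars1 between 30 and 2 days were -0.81, -0.77, -0.61 and -0.81. With the animal as a block 0 genes were called in any comparison between trained groups (adjusted p = 0.0708 for Yars2, 0.0821 for Yars1, 0.11 for Cars, 0.278 for Farsa and 0.392 for Wars1 between 30 and 2 days, 0.0891 for Yars2 and 0.235 for Yars1 between 20 and 2 days, and 0.238 for Yars2 between 30 and 10 days). Without trained muscle 2 of 2 days 0 genes were called against 2 days, with adjusted p for 30 days of 0.0564 for Yars2, 0.115 for Yars1, 0.0655 for Cars, 0.0984 for Farsa and 0.169 for Wars1. The calls of Yars1 and Yars2 between 20 and 2 days were also lost without trained muscle 3 of 2 days (adjusted p = 0.0742 and 0.0825) and without muscle 1 of 20 days (0.0958 and 0.0766), that of Yars1 without muscle 2 of 20 days (0.113) and that of Yars2 without muscle 3 (0.102).
Between 30 and 2 days Yars1 failed without muscle 3 of 30 days as well (adjusted p = 0.115), Farsa without muscle 3 of 2 days or any muscle of 30 days (0.0599 to 0.201), and Wars1 without any of 15 of the 24 libraries (0.0503 to 0.177).

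The sequence and the change can be set side by side. At 2 days 1 of the 7 cytosolic genes with TGATGNAA rose (Yars1) and 3 of the 10 matched genes without it did (Eprs, Hars1 and Wars1), with medians of 0.16 and 0.19. At 10 days 2 of the 7 fell (Aars and Iars1) and 1 of the 10 (Lars1), and at 30 days 2 of the 7 (Aars and Cars) and 0 of the 10. All 6 mitochondrial genes that fell at 2 days were among the 16 windows without the motif, as were the 10 that did not.
Of the amino acid response genes outside the synthetases 12 of 17 passed the filter, of which 4 rose and 2 fell at 2 days. Ddit3, a stress factor, rose by 1.86 on the log2 scale (adjusted p = 1.23e-07), Nupr1 by 0.96 and Mthfd2 by 0.85 (adjusted p = 9.66e-05 and 1.03e-06). Chac1, a glutathione-degrading enzyme, fell by 2.23 (adjusted p = 0.000229). At the later times 3 of the 12 rose and 5 fell at 10 days, 2 and 4 at 20 days, and 2 and 5 at 30 days. Of all genes tested 15.4% were higher and 13.5% lower at 2 days, and 15.6% and 13.3% at 10 days. These shares were 11.7% and 9.64% at 20 days and 11.1% and 9.46% at 30 days, and the list was not tested against them. Atf4 itself, named after its values were seen, rose by 0.26 at 2 days (adjusted p = 0.0425) and fell by 0.32, 0.53 and 0.45 at 10, 20 and 30 days (adjusted p = 0.0106, 0.000174 and 0.00117).

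Other parts of the tRNA charging machinery were read from fixed lists. Of 9 genes that charge or correct tRNA outside the naming rule 0 rose and 5 fell at 2 days, 3 fell at 10 days, 1 at 20 days and 0 at 30 days. For these and the lists that follow, the shares of all genes called were 15.4% higher and 13.5% lower at 2 days and 15.6% higher and 13.3% lower at 10 days. They were 11.7% higher and 9.64% lower at 20 days and 11.1% and 9.46% at 30 days, and lists this small were not tested against them. Tars3, a cytosolic threonyl paralog, fell by 0.57 at 2 days (adjusted p = 0.00196), Qrsl1 by 0.45 and Gatb by 0.40 (adjusted p = 0.0155 and 0.0078), and Sepsecs, of the selenocysteine route, by 0.40 (adjusted p = 0.00831). Qrsl1 and Gatb are subunits of the mitochondrial amidotransferase.
Of the 3 scaffold proteins of the multisynthetase complex only Eef1e1 rose at 2 days, by 0.38 (adjusted p = 0.0215), with Aimp1 at 0.27 and Aimp2 at -0.01, and 0 changed later.

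Downstream of charging, of 6 elongation factor genes that deliver cytosolic tRNA 3 rose and 0 fell at 2 days, Eef1a1 by 0.62, Eef1g by 0.41 and Eef1b2 by 0.36 (adjusted p = 0.0034, 0.0139 and 0.018). Of 11 genes for modification and delivery of mitochondrial tRNA 0 rose and 3 fell at 2 days, Mto1 by 0.55, Mtif2 by 0.47 and Tufm, the mitochondrial elongation factor, by 0.31 (adjusted p = 0.000499, 0.0128 and 0.032), and 3, 1 and 1 fell at 10, 20 and 30 days, the last of them Gtpbp3 by 0.45 (adjusted p = 0.0262). Of 23 genes for synthesis and maturation of tRNA 1 rose and 4 fell at 2 days, and 0 rose and 6, 5 and 1 fell at 10, 20 and 30 days. Polr3d, a subunit of RNA polymerase III, which transcribes tRNA genes, fell by 0.54, 0.51 and 0.51 at 10, 20 and 30 days (adjusted p = 1.21e-05, 4.66e-05 and 6.45e-05). Of further subunits Polr3c fell by 0.52 and Polr3a by 0.47 at 10 days (adjusted p = 0.000669 and 0.00104).

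Genes of other cell types moved with the training as well. Of 8 macrophage markers 6 rose at 2 days, 7 at 10 days and 8 at 20 and 30 days, and their summed level was 15.7 to 34.9 in the controls, 59.6 to 150.3 at 2 days, 46.9 to 102.1 at 10 days, 63.6 to 77.9 at 20 days and 68.1 to 89.0 at 30 days. Of 5 fibroblast markers 4 rose at 2 days and 5 at each later time, with summed levels of 74.7 to 253 in the controls, 301 to 495 at 2 days, 518 to 982 at 10 days, 562 to 614 at 20 days and 355 to 416 at 30 days. Of 8 fast muscle markers 3 fell at 2 days, 5 fell and 2 rose at 10 days, and 5 and 4 fell at 20 and 30 days, when their summed level was 58660 to 94500 and 72450 to 79770. No marker of these lists was at 0 throughout a group, and their part in the changes of the synthetases was not tested.
Endothelial markers rose in 0, 2, 1 and 1 of 4 at the 4 times (1 fell at 2 days). Cd4 rose from 10 days on as the only lymphocyte marker that passed the filter, 0 neutrophil markers passed it, and Myf5 rose at 2 and 10 days as the only satellite cell marker that passed. Of the rest 2 of 4 Schwann cell markers fell at 30 days, 1 of 3 adipocyte markers rose from 10 days on and 0 of 4 red blood cell markers changed.

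Counting was by transcript, and 13 of the 37 genes had more than 1 transcript, so a summed value can join forms that moved apart. Tars2, Yars2, Aars2, Cars2, Sars2, Hars1 and Yars1 had 1 transcript each. At 2 days the pair of Tars1 transcripts, with 51.4% and 48.6% of its value, had log2 fold changes of 0.58 and -0.18 (adjusted p = 0.059 and 0.486), beside 0.24 for their sum. At 10 days those of Aars, with 35.7% and 64.3% of its value, had -0.53 and -0.09 (adjusted p = 0.104 and 0.75), beside -0.27 for their sum. Fitted singly, the leading transcript of Sars1 (83.3% of its value) rose by 0.31 at 20 days (adjusted p = 0.0194), and a minor one of Nars1 (11.01%) fell by 1.03 at 30 days (adjusted p = 0.0227), while neither gene passed as a sum. Of Vars2, 60.3% of the value came from a transcript annotated as a retained intron, and of Vars1, 18.6%.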

How the data were processed

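RNA from 24 rat tibialis anterior muscles was sequenced by the authors as stranded, poly-A enriched, paired-end libraries. The submitters' processing notes name Partek, STAR and the rn6 (Rnor_6.0) build, and DESeq2, whose comparisons were not used here. The authors deposited TPM-type values for 20027 Ensembl transcripts, scaled for length to a total of 634431 in each library. These are not counts, so no count model was run, and depth was estimated only from the spacing of low values, as 5.79 to 10.1 reads for a value of 1 on 1 kb. A deposited gene-level table and a table of the authors' own comparisons (p-values, false discovery rates and ratios) were not used, and 0 columns were left unmapped.

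Values were divided by median-of-ratios factors from the 16230 transcripts above 0 in every library and summed per gene symbol. Log2(value + 1) was fitted with limma 3.58.1 (R 4.3.3) in 5 groups, 12 controls and 3 trained muscles per time, for 11196 genes with at least 1 in at least 3 libraries, so folds of low genes are understated. Benjamini-Hochberg adjustment ran over all of them within a comparison, with a threshold of 0.05 two-sided. Differences among control groups were tested with the limma F test. The fit was tested on simulated data with independent noise and no animal effect, which cannot judge the pairing. It recovered 52.4% of simulated log2 changes of 0.5 and 92.6% of those of 1 at 2 days. With the animal as a block these were 16.95% and 75.45%. Only 200 of the 11196 genes were changed in the simulation, while the data had 1728 called higher and 1507 lower at 2 days. Changes smaller than 0.5 were not simulated, so these shares do not say how many of the smaller changes are found.

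The synthetases and all lists were chosen with earlier results of these data known. Members are named except 1, and of the lists 1 gene, that are not reported here, full values go to cytosolic genes called at 2 or more times and to the 6 mitochondrial genes called at any time with the largest change, and from each list at most 4 genes past the threshold are named, those with the largest change at any time. Other genes with full values were chosen after their values were seen. The 2 muscles of an animal pair by the labels' animal numbers. Their deviations from group means correlated with a median r of 0.139 (12 pairs) against -0.000262 for different animals (132 pairs). Of 276 library pairs 0 were identical. Where the labels name no separate litters or batches, p-values measure only the spread between these muscles.

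As alternatives, the scaling factor was left out (pseudocount 1 or 0.1), the pseudocount was set to 0.1, the filter was dropped, the threshold was set to 0.01, animals entered the fit as a block, each time had its own controls, the prior followed an intensity trend, transcripts were fitted singly, and each of the 24 libraries left out in turn. Leaving out 2 control libraries together was added after seeing the data. Promoters come from RefSeq for GRCr8, and positions of genes from the deposited table. Python 3.11.15 (pandas 2.3.3, numpy 2.4.6) wrote the tables, and matplotlib 3.10.9 drew the plots.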

Additional observations from a re-analysis of the deposited data

Results flagged for a closer look

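Differences between lengths of training, each tested as the difference between 2 trained groups in limma, were found for 5 synthetases, 8 times in 3 of the 4 comparisons run, a share of the 37 below that of all genes in each (5.41% against 8.05%, 13.5% against 15.0% and 2.70% against 3.94%). Yars2 was higher at 20 than at 2 days by 0.4, at 30 than at 2 days by 0.48 and at 30 than at 10 days by 0.63 on the log2 scale. Lower values were found for Yars1 at 20 than at 2 days (-0.45) and at 30 than at 2 days (-0.49), for Cars (-0.53), Farsa (-0.47) and Wars1 (-0.31) at 30 than at 2 days. None passed with the animal as a block. Over all 11196 genes the block called 98 higher and 96 lower at 20 against 2 days. At 30 days it called 151 and 163 against 2 days, and 2 and 7 against 10 days. Without the scaling factor none of the 3 of Yars2 passed (log2 fold changes of 0.32, 0.21 and 0.36, adjusted p = 0.145, 0.246 and 0.0564), and only that between 30 and 10 days did with a pseudocount of 0.1. With the factor, between 30 and 10 days Yars2 passed with any single library left out.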

How the results depend on the processing

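Counts of synthetases past the threshold are given in the order cytosolic then mitochondrial, and in the fit described they were 4 and 6 at 2 days, 4 and 4 at 10 days, 1 and 1 at 20 days and 2 and 1 at 30 days, with 0, 2, 5 and 1 between trained groups (10 against 2, 20 against 2, 30 against 2 and 30 against 10 days). No named call changed its direction under any alternative run. Without the scaling factor the counts were 9 and 2, 1 and 2, 0 and 1, and 8 and 5, with 1 at 20 against 2, 13 at 30 against 2 and 5 at 30 against 10 days, and the share of higher genes among all genes called went from 53.4% to 74.5% at 2 days and from 54.0% to 20.0% at 30 days. Of all genes on these unscaled values, 18.9% were higher and 6.49% lower at 2 days, 18.6% and 6.06% at 10 days, 10.3% and 6.62% at 20 days, and 5.74% and 23.0% at 30 days. Between trained groups the shares were 2.0% higher and 6.47% lower at 20 against 2 days, 2.22% and 27.0% at 30 against 2 days, and 0.435% and 18.0% at 30 against 10 days. With a pseudocount of 0.1 in addition, the counts were 9 and 2 at 2 days, 1 and 2 at 10 days, 0 cytosolic at 20 days, 9 and 5 at 30 days, and 1, 13 and 6 between trained groups. Of 11262 genes, 240 were then higher and 2925 lower at 30 against 2 days, and 47 and 1855 at 30 against 10 days. The replicate block by animal gave 0 and 6, 1 and 3, 0 and 1, and 0 and 0, with 0 in all comparisons between trained groups, and with it 22 of 31 named calls fell short, each in its direction. Over all 11196 genes the block called 1320 higher and 1097 lower at 2 days, and 807 and 570 at 30 days. Between trained groups it called 5 and 2 at 10 against 2 days, and 98 and 96 at 20 against 2 days. At 30 against 2 days it called 151 and 163, and at 30 against 10 days 2 and 7. With the controls of the same time alone, the cytosolic counts were 0, 1, 0 and 0, the mitochondrial count at 30 days was 0, and the trained groups gave 0 at 20 against 2, 1 at 30 against 2 and 0 at 30 against 10 days. On single transcripts the cytosolic counts were 2, 2 and 1 at 2, 10 and 30 days. A threshold of 0.01 left 1 and 3 at 2 days, 1 and 2 at 10 days, 0 cytosolic at 20 and 30 days, and 0 and 2 at 20 and 30 against 2 days. Without the filter the cytosolic count at 20 days was 2. Omitting contralateral muscles 1 and 2 of 30 days, chosen after seeing the data, gave 4 cytosolic genes at 30 days. With 1 library left out at a time, the cytosolic counts ran from 0 to 6, 1 to 6, 0 to 1 and 0 to 4 over the 4 times, the mitochondrial counts from 1 to 7, 2 to 6, 0 to 2 and 1 to 2, and the comparisons of trained groups from 0 to 1, 0 to 4, 0 to 6 and 1 to 2. Between the control groups 0 were called each time. Named calls fell short in 79 of 744 such fits. Over all genes, leaving out trained muscle 2 of 2 days left 927 called higher and 586 lower at 2 days, against 1728 and 1507. Why the counts moved was not tested. A block or fewer libraries leave less information on the spread, and with the block the log2 fold changes moved as well. Some were smaller, as for Hars1 (0.37 to 0.26) and Wars1 (0.23 to 0.16) at 2 days and Tars2 at 30 days (-0.45 to -0.30). Others were larger, as for Aars2 (-0.59 to -0.75) and Tars2 (-0.40 to -0.55) at 2 days. Depth is known only as an estimate, and members near a value of 1 are the least precise.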
